A study of Homo sapiens with 12 samples.

Results

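Aminoacyl-tRNA synthetases are the enzymes that join each amino acid to its tRNA, and their mRNAs are described here across 12 RNA sequencing libraries of MDA-MB-231 cells, a human triple-negative breast cancer line. The 36 listed genes, 20 for cytosolic and 16 for mitochondrial enzymes, were found by symbol among the 64252 gene IDs of each library. They were chosen by function rather than by their values, though earlier results of these data were known. The cells carried a transfected plasmid with wild-type Dicer, the ribonuclease that cuts microRNA precursors, or with Dicer bearing mutation 1, mutation 2 or mutation 3, which the labels number without naming the changes. Each group held 3 libraries of poly(A)-selected RNA, all 4 groups received a Dicer plasmid by lipofection, and untransfected or empty-plasmid cells were not analysed here. The labels do not describe removal of the cells' own DICER1 gene, do not give the share of cells that took up plasmid, and do not state whether replicate libraries are separate cultures. The p-values below therefore measure the spread between these libraries, which may be technical.

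Cytosolic synthetases charge the tRNAs that serve ribosomes in the cytosol, and a second set, encoded in the nucleus and imported, charges the tRNAs made inside mitochondria. Several cytosolic enzymes sit together with scaffold proteins in the multi-synthetase complex, while others work as free enzymes. When charged tRNA runs short, the kinase GCN2 senses uncharged tRNA and phosphorylates the initiation factor eIF2, which favours translation of the transcription factor ATF4, and ATF4 is known to raise transcription of many cytosolic synthetase genes through C/EBP-ATF composite elements.

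Promoter windows from 250 bases before to 50 bases after the start site were taken from RefSeq (GRCh38.p14). They were searched on both strands for the core of the C/EBP-ATF composite element, TGATGNAA. Windows were found for 30 of the 36 genes, and LARS1, TARS3, VARS1, YARS1, AARS2 and VARS2 had none. The core was present in 8 of the 30 genes (26.7%), 7 of them among the 16 cytosolic genes with a window, against 4.46% of the 27305 genes in the promoter table. In 6 of the 8 it lay within 50 bases of the start site, and in 6 of the 8 it read TGATGCAA. The 8 matches follow, each read 5′ to 3′ on the strand that carries the core, with 10 bases on either side and the core in capitals.
AARS1, chr16:70289676-70289703, plus strand: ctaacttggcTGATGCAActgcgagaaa
MARS1, chr12:57488054-57488081, minus strand: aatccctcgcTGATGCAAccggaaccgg
TARS1, chr5:33440957-33440984, minus strand: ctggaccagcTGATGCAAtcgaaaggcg
GARS1, chr7:30594835-30594862, minus strand: gctcggagcaTGATGAAAtcgccgcgta
IARS1, chr9:92293693-92293720, plus strand: cgcacggaggTGATGCAAcgcgctgaaa
CARS1, chr11:3057408-3057435, plus strand: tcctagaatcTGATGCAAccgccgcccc
NARS1, chr18:57621805-57621832, minus strand: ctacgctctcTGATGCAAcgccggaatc
YARS2, chr12:32756077-32756104, minus strand: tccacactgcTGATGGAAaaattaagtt

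For AARS1, the member with the largest fold difference among its wild-type libraries, the 250 bases upstream of the start (chr16:70289507-70289756, minus strand, the strand of the gene) show the core in reverse, in capitals.
AARS1 upstream: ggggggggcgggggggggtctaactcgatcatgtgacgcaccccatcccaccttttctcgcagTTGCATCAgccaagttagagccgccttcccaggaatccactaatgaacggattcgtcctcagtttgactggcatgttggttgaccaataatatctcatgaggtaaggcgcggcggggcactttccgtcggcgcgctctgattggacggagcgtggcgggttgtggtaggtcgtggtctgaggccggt
The cyclic AMP response element TGACGTCA was in 0 of the 30 windows and in 2.25% of all genes. The interferon response element core was in EARS2 and WARS1 (6.67%, against 4.38% of all genes), and the STAT site TTCNNNGAA, a palindrome in its fixed letters, was in CARS1, PARS2, TARS1, WARS1 and WARS2 (16.7%, against 9.38%). A 90-base stretch upstream of WARS1, the tryptophan enzyme known to be induced by interferon-gamma, shows that core in capitals (chr14:100375353-100375442, minus strand, the strand of the gene).
WARS1 upstream: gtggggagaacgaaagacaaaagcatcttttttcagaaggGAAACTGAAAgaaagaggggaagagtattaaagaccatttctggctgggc
A match describes the letters only and says nothing of whether a factor binds there.

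Library totals ran from 13507341 to 17078273 counts, and levels are given as CPM, counts scaled to library size with trimmed-mean factors. DICER1 stood at 27.4, 45.2 and 47.4 CPM in wild-type replicates 1, 2 and 3 and between 38.8 and 45.7 CPM in the 9 mutant libraries, and it did not pass the test among the 4 groups (edgeR quasi-likelihood test, adjusted p = 0.557); plasmid and native transcripts were not separated by the counts. All 6 expressed markers of the line (VIM, CD44, EGFR, AXL, MSN, CAV1) had group means of at least 210.9 CPM. Of the 5 markers known to be low in it, EPCAM and GATA3 were above 1 CPM in each group, and both were called as higher with mutation 1 than with wild type. EPCAM stood at 17.7, 5.64 and 4.59 CPM in wild-type replicates 1, 2 and 3 and at a mean of 30.6 CPM with mutation 1 (log2 1.72 ± 0.40, adjusted p = 0.00261), and GATA3 at 25.1, 7.71 and 9.25 CPM and at 28.3 CPM (1.02 ± 0.34, adjusted p = 0.0209). Without wild-type replicate 1 these values were 2.57 and 1.75, and both genes were then also called as higher with mutations 2 and 3. Markers of other cell types summed to 4.20 to 19.7 CPM over 10 genes in wild type, mostly PECAM1, and to 1.06 to 2.38 CPM in the mutant groups, with 2 and 3 of the 10 at 0 in every library of a group. Their part in the results was not tested. Wild-type replicate 1 stood apart: 42.1% of all 15094 genes tested were at least 1.5-fold away from the mean of wild-type replicates 2 and 3, and its share of counts from mitochondrially encoded mRNAs was 1.34%, where the other wild-type libraries had 5.04% and 5.09%. This share was 1.27 to 1.36% with mutation 1, 4.48 to 5.57% with mutation 2 and 4.81 to 5.05% with mutation 3. Counts of called cytosolic and mitochondrial genes against wild type, and most list counts, are therefore given with and without wild-type replicate 1. Motif counts and counts past 1.5-fold are given only with it. Of the 102 values of single synthetase genes against wild type, 16 gained a call without it and 0 lost one, and the log2 fold change moved by at most 0.31.

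Fewer synthetases than genes in general were far apart within wild type. Replicate 1 was at least 1.5-fold below wild-type replicates 2 and 3 for 5 of the 34 members tested and at least 1.5-fold above for 1, together 17.6%. The share of all genes given above was not matched to these members for expression level. The members farthest apart were AARS1 (2.42-fold lower in replicate 1), MARS1 (2.20-fold lower), WARS1 (1.97-fold lower) and NARS1 (1.62-fold higher), while GARS1, AARS2, HARS2 and LARS2 differed by at most 1.01-fold. For 21 of the 34 members (61.8%) replicate 1 lay nearer to the mean of mutation 2 than to wild-type replicates 2 and 3. The share of all genes was 60.3%. These members were 14 of 19 cytosolic and 7 of 15 mitochondrial genes. Replicate 1 lay nearer to mutation 3 for 18 of the 34 (45.6% of all genes) and nearer to mutation 1 for 12 (40.6% of all genes).

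Of the 36 genes, 34 passed the filter on low counts. VARS1 and VARS2, the cytosolic and mitochondrial valine enzymes, had 0 counts in all 12 libraries. Both lie in the major histocompatibility region of chromosome 6, where zeros were common: of coding genes within 500000 bases, 59 of 69 around VARS1 and 20 of 32 around VARS2 were at 0 everywhere, against 14.7% of all coding genes. The zeros of the valine enzymes are therefore not read as absence of expression. SARS2, the mitochondrial serine enzyme, is also uncertain, at 0.959 to 2.67 CPM. Of its exonic bases 57.0% are shared with other annotated genes, among them MRPS12, and counting ignored strand.

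Cytosolic enzymes had the higher mRNA levels. Divided by exonic length, the median over the 19 tested cytosolic genes was 35.2 CPM per kilobase, averaged over the 4 groups, and the median over the 15 tested mitochondrial genes was 5.36. TARS1 (threonine, 72.7 CPM per kilobase) and GARS1 (glycine, 69.7), which makes both the cytosolic and the mitochondrial enzyme, were at the top. IARS2, the mitochondrial isoleucine enzyme, stood among the cytosolic genes at 52.5, as high as SARS1 (52.6) and IARS1 (51.9). CARS1 (1.87), the threonine paralog TARS3 (1.08) and SARS2 (0.517) were lowest. The exonic length merges the exons of all annotated transcripts of a gene, and this order depends on it. CARS1 has 10037 exonic bases, and its group means before the division were 13.9 to 25.5 CPM. PARS2, which ranked above it, has 2347 exonic bases and group means of 0.929 to 8.77 CPM.

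The tested synthetase genes differed among the 4 groups in 29 of 34 cases (adjusted p under 0.05), 17 of 19 cytosolic and 12 of 15 mitochondrial, where 83% of all genes tested did. LARS1, TARS3, IARS2, NARS2 and SARS2 did not pass this test. The share of called genes is thus like that of the transcriptome, and what follows turns on direction and on individual enzymes. In bulk RNA, fewer expressing cells and less RNA per cell cannot be told apart.

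With mutation 1, synthetase mRNAs were mostly lower than with wild-type Dicer. Of the cytosolic genes 14 of 19 fell and 1 rose, and of the mitochondrial genes 8 of 15 fell and 4 rose. Over all genes tested 69% were called, 36.5% as lower and 32.5% as higher. The median log2 fold change was -0.60 for cytosolic and -0.48 for mitochondrial genes, and -0.04 for all genes. Requiring also a 1.5-fold change left 11 cytosolic and 7 mitochondrial genes lower and 0 higher (all genes, 28.5% lower and 24.1% higher). With wild-type replicate 1 left out, 14 cytosolic genes were lower and 3 higher, and 8 mitochondrial genes were lower and 4 higher, where 82.7% of all genes were called (42.5% lower, 40.2% higher). The mitochondrially encoded mRNA share was also low with mutation 1; its part in these counts was not tested.

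**Figure D1:**
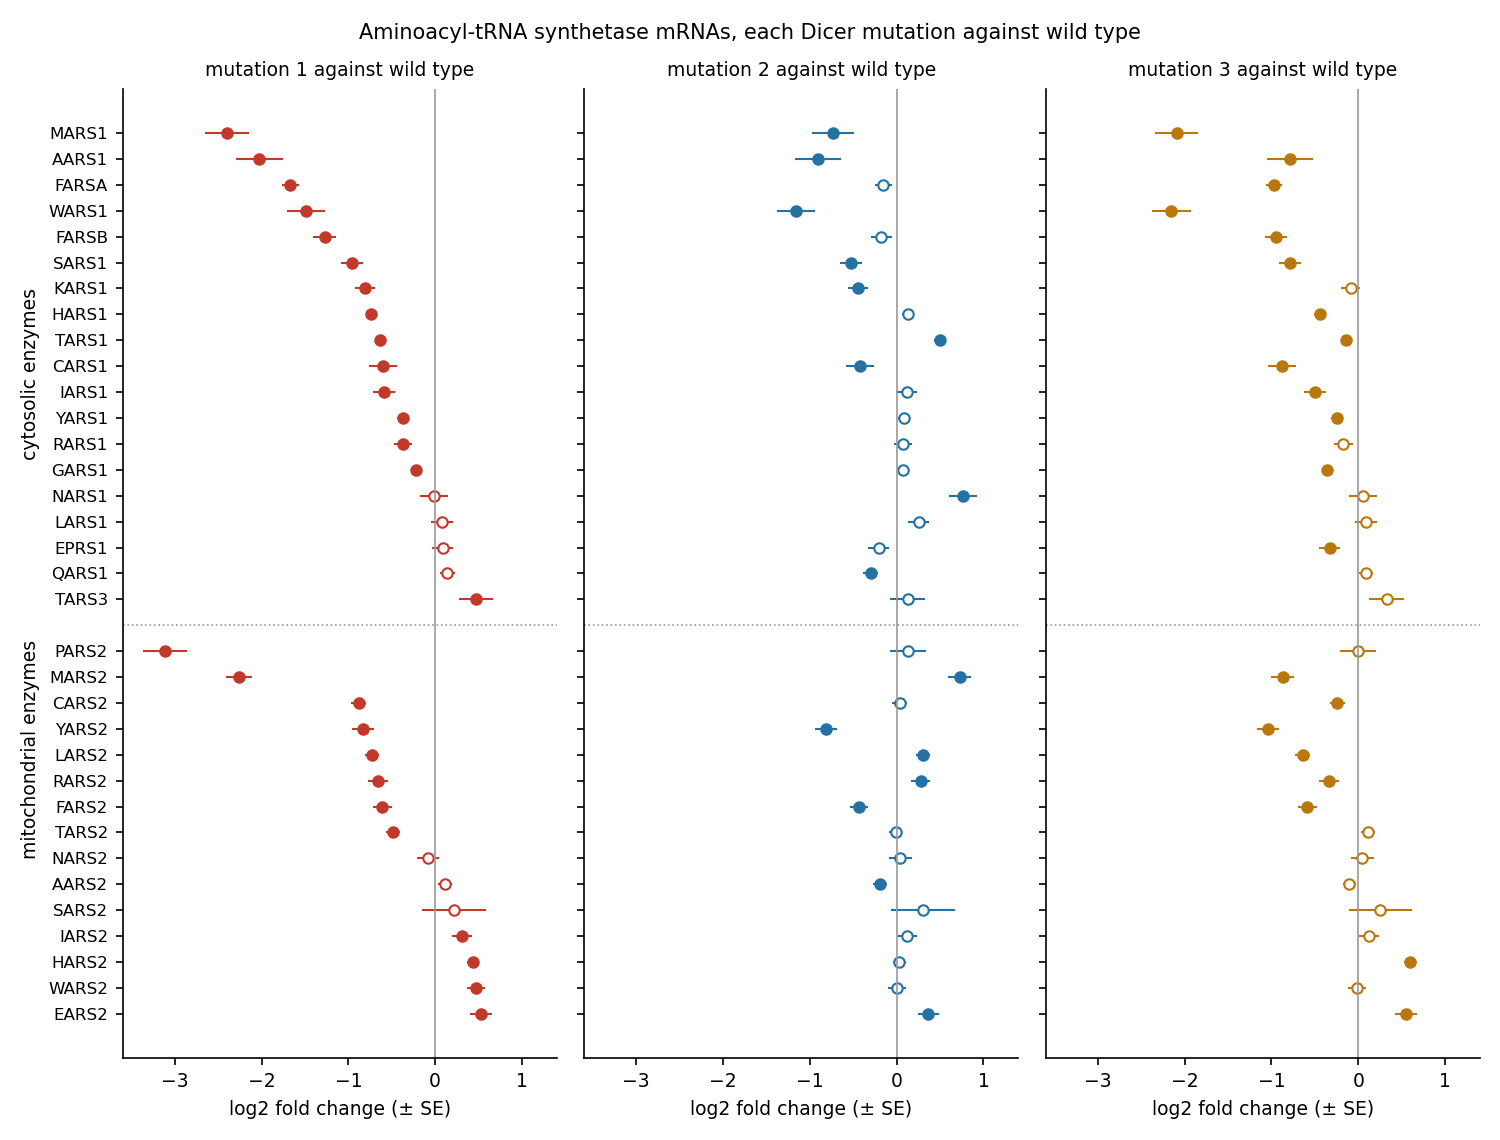
Log2 fold change (horizontal axis, with 1 SE on either side) of the 34 tested synthetase genes for mutations 1, 2 and 3 against wild type, 3 libraries a group; filled circles passed the edgeR test at an adjusted p under 0.05 and open circles did not. Most filled circles in the mutation 1 and mutation 3 panels lie left of 0, from -3.11 (PARS2, mutation 1) upward, and the mutation 2 panel has filled circles on both sides.

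MARS1 (chr12:57475445-57517569), the methionine enzyme that also charges the initiator tRNA, was the cytosolic gene that fell most with mutation 1. It stood at 163, 359 and 358 CPM in wild-type replicates 1, 2 and 3, at 54.1, 51.3 and 61.8 CPM with mutation 1, at 173, 179 and 178 CPM with mutation 2 and at 67.4, 69.5 and 69.1 CPM with mutation 3. Every mutation 1 and mutation 3 library lay below every wild-type and mutation 2 library, and mutation 2 lay within the range of wild type. The log2 fold change against wild type was -2.40 ± 0.24 (SE, adjusted p = 7.56e-06) for mutation 1, -0.73 ± 0.23 (adjusted p = 0.0296) for mutation 2 and -2.09 ± 0.24 (adjusted p = 3.07e-05) for mutation 3. These were -2.69, -1.02 and -2.38 without wild-type replicate 1. Of its exonic bases 13.3% are shared with other genes, among them DDIT3, which ranged from 6.19 to 22.0 CPM.

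AARS1, the alanine enzyme whose upstream sequence is printed above, fell with all 3 mutations and farthest with mutation 1. It stood at 138, 334 and 335 CPM in wild type, at 66.6, 64.6 and 67.0 CPM with mutation 1, at 141, 144 and 143 CPM with mutation 2 and at 150, 163 and 154 CPM with mutation 3. The mutation 1 libraries were below all others, whereas mutations 2 and 3 were above wild-type replicate 1 and far below the other two wild-type libraries. Against wild type, log2 fold changes of -2.03 ± 0.26, -0.91 ± 0.25 and -0.79 ± 0.25 were measured for mutations 1, 2 and 3 (adjusted p of 4.75e-05, 0.0166 and 0.0198 in that order), and of -2.34, -1.22 and -1.10 without wild-type replicate 1.

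WARS1 had its lowest level with mutation 3. It stood at 90.3, 178 and 178 CPM in wild type, at 53.8, 53.4 and 51.7 CPM with mutation 1, at 67.1, 67.9 and 65.2 CPM with mutation 2 and at 36.5, 32.3 and 31.6 CPM with mutation 3. No group overlapped another, and wild type was highest. It fell by 1.49 ± 0.21 (log2, SE), 1.16 ± 0.20 and 2.15 ± 0.21 with mutations 1, 2 and 3 (adjusted p = 7.87e-05, 0.00145 and 1e-05). Mutation 1 was above mutation 3 by 0.66 ± 0.21 (adjusted p = 0.0249). Other genes known to be induced by interferon-gamma went both ways: of 5 tested from a list of 9, 3 rose and 1 fell with mutation 1, 2 rose and 2 fell with mutation 2, and 1 rose and 2 fell with mutation 3. Over all genes 32.5%, 16.9% and 28.1% were higher and 36.5%, 20.1% and 31.2% lower in these comparisons. Without wild-type replicate 1, 6 of the list were tested. Then 4 rose and 1 fell with mutation 1, 4 rose and 2 fell with mutation 2, and 3 rose and 2 fell with mutation 3. In that fit 40.2%, 33.0% and 38.2% of all genes were higher and 42.5%, 34.9% and 38.8% lower. GBP2, a guanylate-binding protein, rose by 1.76 ± 0.05 with mutation 1 and 0.93 ± 0.05 with mutation 3, and its relative GBP1 fell by 0.95 ± 0.09 and 1.62 ± 0.09. IRF1, a transcription factor of the response, rose by 0.50 ± 0.12 with mutation 1 and fell by 0.35 ± 0.12 with mutation 3.

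FARSA and FARSB encode the alpha and beta subunits of the cytosolic phenylalanine enzyme, and both fell with mutations 1 and 3. FARSA stood at 112, 140 and 137 CPM in wild type, at 42.8, 39.7 and 39.7 CPM with mutation 1, at 110, 120 and 121 CPM with mutation 2 and at 66.2, 67.3 and 64.9 CPM with mutation 3. FARSB stood at 51.6, 69.4 and 67.4, at 23.8, 29.1 and 25.0, at 57.5, 56.4 and 52.9, and at 31.5, 34.6 and 31.3 CPM in the same order. In both, mutation 1 was lowest, mutation 3 next, and mutation 2 overlapped wild type. The log2 fold changes of FARSA were -1.67 ± 0.08 (adjusted p = 3.87e-08) with mutation 1 and -0.97 ± 0.08 (adjusted p = 3.34e-06) with mutation 3, and those of FARSB were -1.27 ± 0.12 (adjusted p = 3.17e-06) and -0.95 ± 0.12 (adjusted p = 4.41e-05). With mutation 2 the values were -0.15 and -0.18 (adjusted p = 0.167 and 0.245), and -0.24 and -0.30, both called, without wild-type replicate 1. Per kilobase, FARSA exceeded FARSB 2.87 ± 0.122-fold in wild type (SD, n = 3), 2.19 ± 0.303-fold with mutation 1, 2.91 ± 0.258-fold with mutation 2 and 2.82 ± 0.114-fold with mutation 3, so the subunit mRNAs were nearest to each other with mutation 1.

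**Figure D2:**
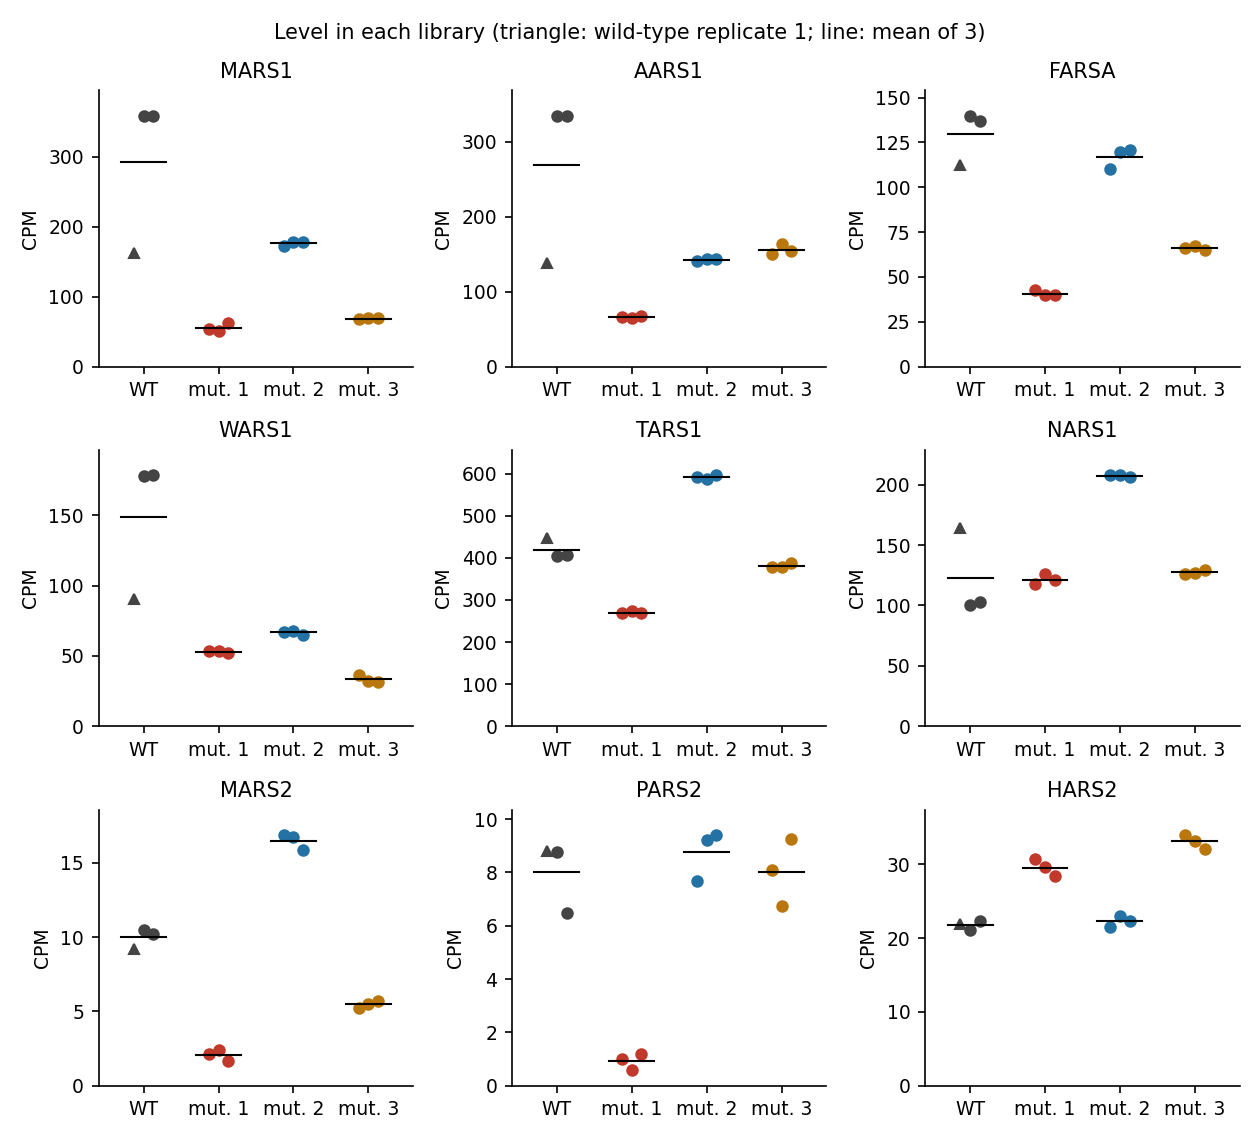
CPM (vertical axis, from 0) of 9 synthetase genes in each library, grouped by plasmid (WT, wild type; mut., mutation); points are libraries, triangles wild-type replicate 1 and lines means of 3. MARS1 lies between 51.3 and 69.5 CPM with mutations 1 and 3 and at 163 CPM or more elsewhere, PARS2 is at 1.20 CPM or less with mutation 1 alone, and NARS1 is highest with mutation 2.

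The synthetases of the multi-synthetase complex did not move as one. With mutation 1, 4 of its 7 listed genes fell (MARS1, KARS1, IARS1 and RARS1) and 0 rose, and 10 of the 12 tested cytosolic genes outside it fell and 1 rose, beside 36.5% lower and 32.5% higher over all genes. Without wild-type replicate 1, 4 fell and 1 rose inside it, and 10 fell and 2 rose outside it. In that fit 42.5% of all genes were lower and 40.2% higher. KARS1, the lysine enzyme of both cytosol and mitochondria, stood at 147, 199 and 199 CPM in wild type, at 101, 104 and 105 CPM with mutation 1, at 133, 136 and 132 CPM with mutation 2 and at 169, 166 and 178 CPM with mutation 3. It fell with mutations 1 and 2 (log2 -0.81 ± 0.10 and -0.45 ± 0.10, adjusted p = 3.28e-05 and 0.00538), and the value for mutation 3, inside the wild-type range, was -0.08 ± 0.10 (called at -0.21 without wild-type replicate 1). IARS1 fell by 0.59 ± 0.11 with mutation 1 and by 0.50 ± 0.11 with mutation 3.

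EPRS1, which joins the glutamate and proline enzymes in 1 protein, stood at 218, 306 and 314 CPM in wild type, at 293, 307 and 291 CPM with mutation 1, at 242, 238 and 246 CPM with mutation 2 and at 211, 226 and 231 CPM with mutation 3. Wild-type replicate 1 lay near mutation 3 and the other wild-type libraries near mutation 1. The fold change was called with mutation 3 only (log2 -0.33 ± 0.11, adjusted p = 0.0272). Mutation 2 was called too (-0.35) when wild-type replicate 1 was left out. QARS1, the glutamine enzyme, stood at 270, 223 and 223 CPM in wild type, at 264, 263 and 262 CPM with mutation 1, at 191, 200 and 191 CPM with mutation 2 and at 256, 258 and 248 CPM with mutation 3. All mutation 2 libraries were below the other 9, and it fell by 0.30 ± 0.07 there (adjusted p = 0.00869). Without wild-type replicate 1 it was also called as higher with mutations 1 and 3 (0.24 and 0.19). LARS1, the leucine enzyme, was not called in any of the 6 comparisons, at 138 to 212 CPM, and was called as higher with mutation 2 (0.11) when that library was left out.

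The scaffold genes of the complex were measured beside it. AIMP2 stood at 23.7, 21.1 and 24.2 CPM in wild type, at 3.10, 3.22 and 2.63 CPM with mutation 1, at 23.8, 25.5 and 24.7 CPM with mutation 2 and at 9.64, 8.89 and 8.30 CPM with mutation 3. It fell by 2.94 ± 0.11 with mutation 1 and by 1.36 ± 0.10 with mutation 3 (adjusted p = 5.30e-09 and 1.05e-06), and its value with mutation 1 was larger in size than that of any of the 7 complex synthetases. EEF1E1 fell by 1.06 ± 0.11 with mutation 1 and by 0.34 ± 0.11 with mutation 3. AIMP1 fell by 0.23 ± 0.08 with mutation 1 and rose by 0.29 ± 0.08 with mutation 3, and 0 of the 3 were called with mutation 2. Leaving out wild-type replicate 1 did not change the counts called for the 3 scaffold genes against wild type.

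GARS1, with small spread in every group, stood at 312, 309 and 318 CPM in wild type, at 264, 278 and 265 CPM with mutation 1, at 320, 329 and 342 CPM with mutation 2 and at 241, 251 and 242 CPM with mutation 3. The groups did not overlap. It fell by 0.22 ± 0.05 with mutation 1 (adjusted p = 0.00202) and by 0.36 ± 0.05 with mutation 3 (adjusted p = 0.000108). The value with mutation 2 was 0.08, called when wild-type replicate 1 was left out. SARS1, the serine enzyme, was at 223 to 325 CPM in wild type and at 148 to 204 CPM in every mutant library, and fell by 0.96 ± 0.12, 0.53 ± 0.11 and 0.78 ± 0.12 with mutations 1, 2 and 3. The other cytosolic genes that fell with mutation 1 were HARS1 (-0.73), TARS1 (-0.63), CARS1 (-0.60), YARS1 (-0.37) and RARS1 (-0.37).

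TARS3 was the cytosolic gene called as higher with mutation 1. It stood at 4.99, 3.63 and 4.01 CPM in wild type, at 6.19, 6.51 and 4.71 CPM with mutation 1, at 4.15, 4.35 and 5.25 CPM with mutation 2 and at 4.44, 5.49 and 5.93 CPM with mutation 3. The groups overlapped, the log2 fold change with mutation 1 was 0.47 ± 0.19 (adjusted p = 0.0439), and the gene did not pass the test among the 4 groups (adjusted p = 0.13).

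Among mitochondrial enzymes the largest differences were in PARS2 and MARS2. PARS2, the proline enzyme, stood at 8.79, 8.77 and 6.47 CPM in wild type, at 0.985, 0.604 and 1.20 CPM with mutation 1, at 7.67, 9.21 and 9.42 CPM with mutation 2 and at 8.07, 6.73 and 9.26 CPM with mutation 3. Only the mutation 1 libraries stood apart: the log2 fold change was -3.11 ± 0.24 (adjusted p = 9.49e-07) with mutation 1, against 0.13 and -0.00 (adjusted p = 0.634 and 0.999) with mutations 2 and 3. Directly compared, mutation 1 was below mutation 2 by a log2 of -3.24 ± 0.24 and below mutation 3 by -3.11 ± 0.24 (adjusted p = 6.76e-07 and 4.29e-06).

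MARS2, the mitochondrial methionine enzyme, has a single-exon gene. It stood at 9.19, 10.5 and 10.2 CPM in wild type, at 2.11, 2.42 and 1.68 CPM with mutation 1, at 16.9, 16.7 and 15.9 CPM with mutation 2 and at 5.20, 5.49 and 5.71 CPM with mutation 3. The 4 groups did not overlap, from mutation 1 up through mutation 3 and wild type to mutation 2. It fell by 2.26 ± 0.13 with mutation 1 and 0.87 ± 0.12 with mutation 3 and rose by 0.72 ± 0.12 with mutation 2 (adjusted p = 1.23e-07, 0.000127 and 0.000865), and mutations 1 and 2 differed by -2.98 ± 0.13. MARS1 and MARS2 thus both fell with mutations 1 and 3, and with mutation 2 MARS1 fell and MARS2 rose.

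The other mitochondrial genes that fell with mutation 1 did so by less: CARS2 (log2 -0.88), YARS2 (-0.83), LARS2 (-0.73), RARS2 (-0.66), FARS2 (-0.61) and TARS2 (-0.48). YARS2, the tyrosine enzyme, stood at 21.9, 29.4 and 28.9 CPM in wild type, at 14.8, 14.6 and 15.6 CPM with mutation 1, at 14.1, 15.2 and 16.4 CPM with mutation 2 and at 13.0, 12.7 and 13.3 CPM with mutation 3. All 9 mutant libraries lay below wild type, and it fell by 0.81 ± 0.11 with mutation 2 and 1.04 ± 0.11 with mutation 3. FARS2, the phenylalanine enzyme, also lay below wild type in all 9 mutant libraries and fell by 0.43 ± 0.09 and 0.59 ± 0.10 with mutations 2 and 3. These 3 comparisons share the wild-type libraries.

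EARS2, WARS2, HARS2 and IARS2 rose with mutation 1. EARS2, the glutamate enzyme, stood at 31.4, 21.6 and 25.7 CPM in wild type, at 38.2, 37.7 and 37.4 CPM with mutation 1, at 32.0, 32.9 and 36.3 CPM with mutation 2 and at 39.1, 38.0 and 37.6 CPM with mutation 3. Every wild-type library was below the other 9, and the log2 fold changes were 0.53 ± 0.11, 0.36 ± 0.11 and 0.55 ± 0.11 (adjusted p = 0.00167, 0.0274 and 0.00173). WARS2, the tryptophan enzyme, stood at 21.4, 17.8 and 17.5 CPM in wild type, at 24.8, 27.5 and 25.9 CPM with mutation 1, at 19.8, 19.1 and 17.9 CPM with mutation 2 and at 19.0, 17.9 and 19.1 CPM with mutation 3. It rose with mutation 1 by 0.47 ± 0.09 (adjusted p = 0.00096) and was not called with mutations 2 and 3. Its cytosolic counterpart WARS1 fell with all 3 mutations. The WARS1 to WARS2 ratio per kilobase was 4.93 ± 2.06 in wild type (2.55 in replicate 1). It was 1.23 ± 0.0721 with mutation 1, 2.13 ± 0.0815 with mutation 2 and 1.09 ± 0.0828 with mutation 3. With mutation 1 IARS2 rose by 0.31 ± 0.10, and it did not pass the test among the 4 groups (adjusted p = 0.0806). Without wild-type replicate 1 it was also called as higher with mutations 2 and 3 (0.28 and 0.29).

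The histidine enzymes HARS1 (cytosolic) and HARS2 (mitochondrial) are neighbours on chromosome 5, transcribed away from each other, with RefSeq start sites 84 bases apart. The bases between them (chr5:140691371-140691454, plus strand) are printed because both genes start at their ends.
HARS1 to HARS2: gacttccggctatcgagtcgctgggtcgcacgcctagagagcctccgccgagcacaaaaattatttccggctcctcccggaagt
HARS1 stood at 97.1, 88.0 and 88.3 CPM in wild type, at 55.9, 55.7 and 52.9 CPM with mutation 1, at 97.6, 101 and 101 CPM with mutation 2 and at 66.8, 65.0 and 69.1 CPM with mutation 3. HARS2 stood at 22.0, 21.2 and 22.4, at 30.7, 29.6 and 28.4, at 21.5, 23 and 22.3, and at 34.0, 33.2 and 32.2 CPM in the same order. The neighbours went opposite ways: HARS1 fell by 0.73 ± 0.06 with mutation 1 and 0.44 ± 0.06 with mutation 3 (adjusted p = 8.77e-07 and 6.07e-05), and HARS2 rose by 0.44 ± 0.06 and 0.60 ± 0.06 (adjusted p = 9.80e-05 and 1.43e-05). With mutation 2 the values were 0.13 and 0.03 (adjusted p = 0.0877 and 0.751), and HARS1 was called there, at 0.19, without wild-type replicate 1. Per kilobase the HARS1 to HARS2 ratio was 1.99 ± 0.113 in wild type (SD, n = 3) and 2.13 ± 0.0333 with mutation 2, against 0.882 ± 0.0143 with mutation 1 and 0.963 ± 0.0519 with mutation 3, with wild-type replicate 1 at 2.10. The annotation gives 8.38% of HARS1 and 15.8% of HARS2 exonic bases as shared with other genes, each other included, and without strand reads there cannot be assigned.

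**Figure D3:**
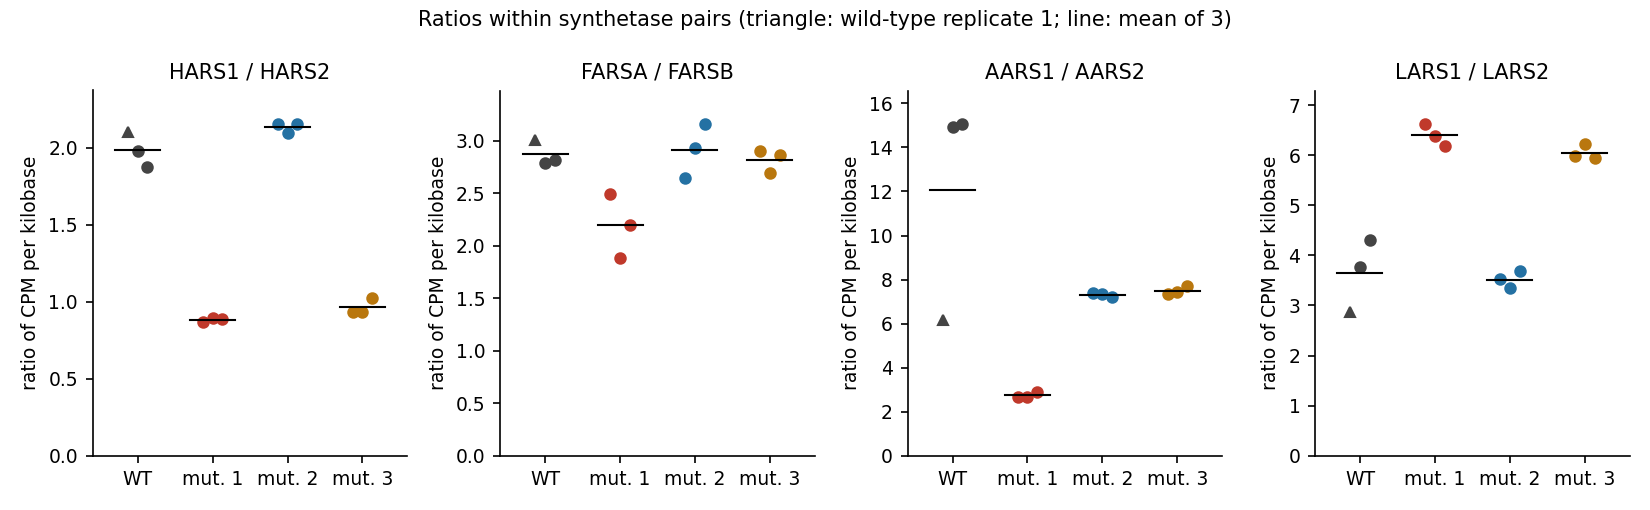
Ratio of CPM per kilobase (vertical axis, from 0) within 4 pairs of synthetase genes in each library; points are libraries, triangles wild-type replicate 1 and lines means of 3. The HARS1 to HARS2 ratio lies between 1.88 and 2.15 in wild type and mutation 2 and between 0.866 and 1.02 in mutations 1 and 3, and the AARS1 to AARS2 ratio of wild-type replicate 1 (6.16) lies far from those of replicates 2 and 3 (14.9 and 15.1).

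Other pairs of a cytosolic and a mitochondrial enzyme differed in how their ratio moved. Some ratios per kilobase were close to wild type with mutation 1: NARS1 to NARS2 was 6.85 ± 0.690, against 6.78 ± 3.16 in wild type, TARS1 to TARS2 was 7.16 ± 0.387, against 7.93 ± 0.263, and the MARS1 to MARS2 ratio differed by less than its SD. The leucine and alanine pairs, with wider differences, are given in full. LARS2, the mitochondrial leucine enzyme, stood at 40.4, 43.9 and 38.2 CPM in wild type, at 23.9, 25.4 and 24.5 CPM with mutation 1, at 50.6, 52.8 and 47.9 CPM with mutation 2 and at 25.3, 25.9 and 27.3 CPM with mutation 3. Mutations 1 and 3 lay below wild type and mutation 2 above it. LARS1 was not called, and LARS2 fell with mutations 1 and 3 (-0.73 ± 0.07 and -0.64 ± 0.07) and rose with mutation 2 (0.31 ± 0.07), so the LARS1 to LARS2 ratio per kilobase was 3.65 ± 0.725 in wild type (2.88 in replicate 1), 6.40 ± 0.225 with mutation 1, 3.52 ± 0.169 with mutation 2 and 6.05 ± 0.146 with mutation 3. AARS2 stood at 21.4, 21.3 and 21.2 CPM in wild type, at 24.0, 23.1 and 22.1 CPM with mutation 1, at 18.3, 18.8 and 19.0 CPM with mutation 2 and at 19.6, 21.0 and 19.0 CPM with mutation 3. Its groups lay close together while AARS1 fell, and the AARS1 to AARS2 ratio per kilobase was 12.1 ± 5.11 in wild type, 2.74 ± 0.134 with mutation 1, 7.31 ± 0.0718 with mutation 2 and 7.50 ± 0.200 with mutation 3.

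With mutation 2 called genes went both ways, with more of the cytosolic genes lower than higher. Of the cytosolic genes 2 rose and 7 fell, of the mitochondrial genes 4 rose and 3 fell, and 37% of all genes tested were called (16.9% higher, 20.1% lower). The medians were -0.15 and 0.04, with -0.01 over all genes. Past 1.5-fold were 1 cytosolic and 1 mitochondrial gene higher (8.59% of all genes) and 3 and 1 lower (10.7%). Leaving out wild-type replicate 1 gave 6 higher and 10 lower cytosolic genes and 5 higher and 3 lower mitochondrial genes, where 67.9% of all genes were called (33.0% higher, 34.9% lower). NARS1, the asparagine enzyme, stood at 164, 100 and 103 CPM in wild type, at 118, 126 and 121 CPM with mutation 1, at 208, 208 and 207 CPM with mutation 2 and at 126, 127 and 129 CPM with mutation 3. The mutation 2 libraries were above the other 9, and the log2 fold change was 0.76 ± 0.15 (adjusted p = 0.00296), or 1.04 without wild-type replicate 1. For mutations 1 and 3 the values were -0.01 and 0.06, not called, and 0.26 and 0.33, both called, without that library. TARS1 stood at 448, 404 and 406 CPM in wild type, at 268, 273 and 269 CPM with mutation 1, at 592, 587 and 597 CPM with mutation 2 and at 379, 377 and 388 CPM with mutation 3. No group overlapped another, and it rose by 0.50 ± 0.05 with mutation 2 (adjusted p = 7.03e-05) and fell by 0.63 ± 0.05 with mutation 1 (adjusted p = 1.46e-06).

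With mutation 3 the synthetases again lay mostly below wild type. Of the cytosolic genes 13 of 19 fell and 0 rose, and of the mitochondrial genes 6 of 15 fell and 2 rose, where 59.3% of all genes were called (31.2% lower, 28.1% higher). The medians were -0.36 and -0.02, with -0.01 over all genes. Past 1.5-fold were 7 cytosolic and 4 mitochondrial genes lower (21.7% of all genes) and 0 and 1 higher (19.4%). In the fit without wild-type replicate 1 the cytosolic count was 14 lower and 3 higher and the mitochondrial count 6 lower and 4 higher, where 77.1% of all genes were called (38.8% lower, 38.2% higher). The largest falls were those of WARS1, MARS1, YARS2 and FARSA given above, and the genes that rose were HARS2 and EARS2.

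The mutants were also compared with each other; wild-type replicate 1 enters these tests through the shared estimate of spread, the filter on low counts and the number of genes tested. Mutation 1 lay below mutation 2 for 13 cytosolic and 6 mitochondrial genes and above it for 2 and 3, where 65.4% of all genes were called (33.6% lower, 31.8% higher). Past 1.5-fold, 8 and 5 were lower (25.6% of all genes) and 0 higher (23.9%). Against mutation 3, mutation 1 was lower for 6 cytosolic and 5 mitochondrial genes and higher for 3 and 2, where 42.8% were called (22.5% lower, 20.2% higher). Past 1.5-fold, 3 and 4 were lower (14.2%) and 1 and 0 higher (10.8%). Mutation 3 was below mutation 2 for 12 and 4 and above it for 2 and 1, where 52.9% were called (27.2% lower, 25.7% higher). Past 1.5-fold, 7 and 3 were lower (17.3%) and 0 higher (17.3%). The cytosolic medians were -0.44, -0.13 and -0.43 and the mitochondrial medians -0.12, -0.09 and -0.05. The fit without wild-type replicate 1 called 16 cytosolic genes lower and 3 higher, 11 lower and 4 higher, and 15 lower and 3 higher in these 3 comparisons. The mitochondrial counts were 6 lower and 5 higher, 6 and 4, and 5 and 3, and 80.2%, 66.6% and 72.9% of all genes were called.

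Groups were also set against all other libraries together. For 11 cytosolic and 5 mitochondrial genes all 3 mutation 1 libraries lay below the other 9, where 19% of all genes did, and leaving out wild-type replicate 1 gave the same counts (all genes, 21.5%). For 5 cytosolic genes (GARS1, HARS1, LARS1, NARS1, TARS1) and 3 mitochondrial genes (LARS2, MARS2, RARS2) all mutation 2 libraries lay above the other 9 (9.59% of all genes), and for QARS1 and AARS2 they lay below (8.29%). Mutation 1 was above the rest for AARS2, IARS2 and WARS2 (20% of all genes). Mutation 3 was below the rest for CARS1, GARS1, WARS1 and YARS2 (6.88%) and above it for HARS2 (8.25%). Wild type was above the rest for SARS1, WARS1, FARS2 and YARS2 (9.62%) and below it for EARS2 (8.44%).

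Beyond PARS2 and the MARS2 difference given above, the members differed most between mutations 1 and 2 in MARS1, which was lower with mutation 1 by a log2 of -1.66 ± 0.24 (adjusted p = 0.000107), and FARSA, lower by -1.52 ± 0.08 (adjusted p = 7.00e-08). TARS1 (-1.13), AARS1 (-1.11), FARSB (-1.10) and LARS2 (-1.04) followed. Between mutations 3 and 2, MARS2 was lower with mutation 3 by -1.59 ± 0.12 (adjusted p = 1.86e-06) and MARS1 by -1.36 ± 0.24 (adjusted p = 0.000645), ahead of WARS1 (-0.99) and LARS2 (-0.95). Between mutations 1 and 3, MARS2 was lower with mutation 1 by -1.39 ± 0.14 (adjusted p = 2.04e-05) and AARS1 by -1.24 ± 0.26 (adjusted p = 0.00283). In the other direction the largest called values were those of WARS1, given above, HARS2 (0.57 ± 0.06, mutation 3 above mutation 2, adjusted p = 2.31e-05) and WARS2 (0.48 ± 0.09 and 0.46 ± 0.09, mutation 1 above mutations 3 and 2, adjusted p = 0.00169 and 0.00109).

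Summed over genes, cytosolic synthetase mRNA made up 3804 ± 472 CPM in wild type (SD, n = 3; 3259 in replicate 1, 4064 and 4088 in replicates 2 and 3), 2517 ± 35.0 CPM with mutation 1, 3605 ± 16.4 CPM with mutation 2 and 2785 ± 43.8 CPM with mutation 3. All mutation 1 and mutation 3 libraries were below every wild-type and mutation 2 library. The mitochondrial sum was 534 ± 29.7, 509 ± 10.7, 565 ± 7.25 and 524 ± 2.89 CPM in the same order, and only IARS2 contributes over 100 CPM to it. The wild-type libraries, from 515 to 568 CPM, overlapped each mutant group. Replicate 1 stood at 568 CPM and wild-type replicates 2 and 3 at 515 and 518 CPM. Mutation 2 (557 to 569 CPM) and mutation 3 (520 to 526 CPM) lay above wild-type replicates 2 and 3.

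**Figure D4:**
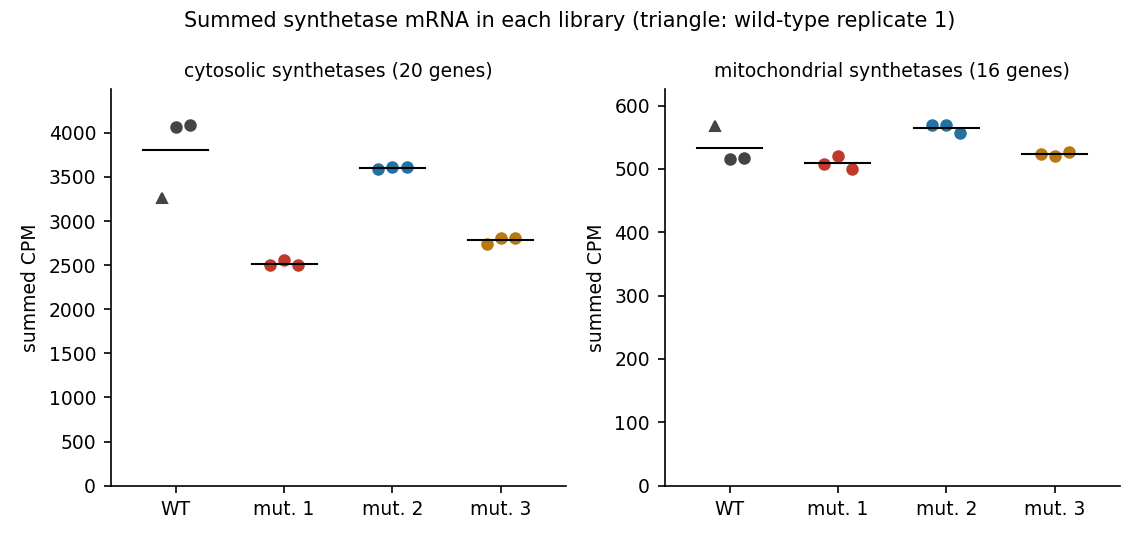
Summed CPM (vertical axis, from 0) of the 20 cytosolic and 16 mitochondrial synthetase genes in each library; points are libraries, triangles wild-type replicate 1 and lines means of 3. The cytosolic sum is between 2497 and 2811 CPM with mutations 1 and 3 and between 3259 and 4088 CPM in wild type and with mutation 2.

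Members were also counted by the motif of the printed promoters. With mutation 1, 7 of the 8 genes with TGATGNAA fell and 0 rose (median -0.62), and of the 22 genes with a window but no match 14 fell and 4 rose (median -0.63). With mutation 3 the medians were -0.64 (7 of 8 fell) and -0.21 (11 of 22 fell), and with mutation 2 they were -0.17 (4 fell, 2 rose) and 0.03 (5 fell, 4 rose). Over all genes 36.5%, 20.1% and 31.2% were lower with mutations 1, 2 and 3, and 32.5%, 16.9% and 28.1% higher. These are descriptions without a test and include wild-type replicate 1. Without that library, NARS1 was called as higher with mutations 1 and 3 (0.26 and 0.33) and GARS1 with mutation 2 (0.08). AARS1, MARS1 and NARS1, which carry the same core, differed from each other with mutation 2, where AARS1 and MARS1 fell and NARS1 rose.

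Genes of the same pathway were counted from lists. Of 25 genes made of ATF4 and its targets outside the family, 8 rose and 13 fell with mutation 1, 1 rose and 9 fell with mutation 2, and 6 rose and 15 fell with mutation 3, with medians of -0.42, -0.22 and -0.81. For this and the lists that follow, the shares over all genes were 32.5% higher and 36.5% lower with mutation 1, 16.9% and 20.1% with mutation 2, and 28.1% and 31.2% with mutation 3. ATF4 itself stood at 233, 477 and 473 CPM in wild-type replicates 1, 2 and 3. It fell by 0.79 ± 0.21 with mutation 2 and by 0.69 ± 0.21 with mutation 3, and was not called with mutation 1 (-0.42 ± 0.21). CEBPB, a transcription factor, rose by 2.36 ± 0.06 with mutation 1 and 0.71 ± 0.05 with mutation 3 and fell by 0.39 ± 0.05 with mutation 2. PSPH, the last enzyme of serine synthesis, fell by 1.44 ± 0.08 and 1.15 ± 0.08 with mutations 1 and 3. SLC3A2, the heavy chain of several amino acid transporters, fell by 0.42 ± 0.05, 0.57 ± 0.05 and 0.90 ± 0.05 with mutations 1, 2 and 3. Dropping wild-type replicate 1 gave 8 higher and 15 lower, 8 and 15, and 6 and 16, where 82.7%, 67.9% and 77.1% of all genes were called.

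Of 9 genes that sense uncharged tRNA or act on eIF2, 7 rose and 2 fell with mutation 1, 3 rose and 1 fell with mutation 2, and 4 rose and 1 fell with mutation 3. EIF2S1, the phosphorylated subunit of eIF2, fell by 1.56 ± 0.09, 0.47 ± 0.09 and 1.01 ± 0.09. PPP1R15A and PPP1R15B, which direct a phosphatase to that subunit, rose with mutation 1 by 2.20 ± 0.31 and 0.94 ± 0.11. PPP1R15B also rose by 0.67 ± 0.11 with mutation 3, where PPP1R15A was not called. PPP1R15A stood at 76.4 CPM in wild-type replicate 1 and at 218 and 223 CPM in wild-type replicates 2 and 3, and at 761 to 824 CPM with mutation 1. Dropping that library gave 7 higher and 2 lower, 6 and 3, and 4 and 2 for the 9 genes, beside the same shares of all genes.

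Upstream of charging, 6 of 8 tested genes of tRNA maturation and export fell with mutation 1 (36.5% of all genes) and 0 rose, 2 fell and 1 rose with mutation 2, and 7 fell and 1 rose with mutation 3 (31.2% of all genes lower). ELAC2, which trims the 3′ ends of tRNA precursors, fell by 1.16 ± 0.07 and 1.04 ± 0.07 with mutations 1 and 3, RTCB, the tRNA ligase, by 1.03 ± 0.07 and 0.82 ± 0.07, and TSEN15, a subunit of the splicing endonuclease, by 1.04 ± 0.13 and 1.49 ± 0.13. For the selenocysteine tRNA, which is charged by SARS1 and then converted, 5 of 7 genes fell and 1 rose with mutation 1, 1 fell with mutation 2 and 4 fell with mutation 3. SEPHS2, which makes the selenium donor, stood at 60.3, 50.3 and 48.7 CPM in wild type and at 6.47, 6.18 and 5.59 CPM with mutation 1, a fall of -3.12 ± 0.10 on the log2 scale. It also fell by 0.32 ± 0.09 with mutation 2 and by 1.24 ± 0.09 with mutation 3. SEPHS1, its paralog, fell by 0.94 ± 0.08 with mutation 1 and 0.91 ± 0.08 with mutation 3, and SEPSECS, the converting enzyme, rose by 0.52 ± 0.17 with mutation 1.

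Downstream of charging, 4 of 7 tested genes for editing and delivery of charged tRNA rose and 3 fell with mutations 1 and 3 each, where 69% and 59.3% of all genes were called, and 1 fell with mutation 2. EEF1G, the listed gene not tested, had 0 counts in all 12 libraries, which is not read as absence of expression. EEF1A1, the elongation factor that carries charged tRNA to the ribosome, rose by 1.16 ± 0.10 and 0.92 ± 0.10 with mutations 1 and 3, and its paralog EEF1A2 by 3.56 ± 0.45 and 1.34 ± 0.42. EEF1A2 stood at 59.2, 15.6 and 15.1 CPM in wild-type replicates 1, 2 and 3, and without replicate 1 these values became 4.52 and 2.31. DTD1, which edits mischarged D-amino acids, fell by 0.76 ± 0.08 and 0.53 ± 0.08. Of 13 mitochondrial charging and translation factors 2 rose and 7 fell with mutation 1, 2 rose and 2 fell with mutation 2, and 2 rose and 6 fell with mutation 3. Among them the elongation factors GFM1 and TSFM fell by 0.86 ± 0.09 and 1.59 ± 0.17 with mutation 1 and by 0.95 ± 0.09 and 1.30 ± 0.17 with mutation 3. QRSL1 is a subunit of the amidotransferase that makes mitochondrial glutaminyl-tRNA. It fell by 1.36 ± 0.16 with mutation 1 and 0.45 ± 0.15 with mutation 3, and rose by 0.56 ± 0.15 with mutation 2. Leaving out wild-type replicate 1 changed the mutation 1 counts of these 4 lists by at most 2 genes. With mutation 2 the lower counts then became 4 for maturation and export, 3 for selenocysteine, 4 for editing and delivery and 5 for the mitochondrial factors, with 34.9% of all genes lower.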

How the data were processed

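The deposited values are raw counts of read pairs per gene, made by the authors with featureCounts 2.0.6 over exons summed by gene ID, without strand, at a minimum mapping quality of 10, on an hg38 Ensembl gene track, per the file headers. Tools named in the submitters' processing notes are cutadapt 1.9.1, FastQC 0.11.8 and, with versions not given in the sources used here, DESeq2, SAMtools and STAR. With strand ignored, reads in bases shared by overlapping genes cannot be assigned to one of them by strand. The mapping quality limit drops reads that fit several places. Symbols were matched for 56105 of 64252 IDs (99.61% of counts), and coordinates and exonic lengths came from GENCODE v29 (56591 IDs, hg38), not from the counting annotation.

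All 12 libraries, 3 in each of 4 groups, entered 1 edgeR 4.0.16 quasi-likelihood fit (R 4.3.3, limma 3.58.1; TMM scaling, robust, 8 residual degrees of freedom). After filterByExpr, with a count minimum of 10 and a total minimum of 15, 15094 genes were tested. A call is an adjusted p (Benjamini-Hochberg, over all genes tested) under 0.05, and every adjusted p comes from this fit. The SE is the size of the log2 fold change over the root of its F value. Levels are CPM with TMM factors, as mean ± SD of 3 libraries. The scripts were tested on simulated data. No test was run on lists or ratios; lists are described by counts and medians.

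All 36 genes were eligible for naming. Values per library are given for up to 4 called genes in each direction per comparison and for WARS1, TARS3, GARS1, KARS1, EPRS1, QARS1, FARSA and FARSB, and other lists give up to 3 genes with the lowest adjusted p among the 4 groups; DDIT3 was added for its overlap with MARS1. Members, lists and motifs were chosen with earlier results of these data known. Alternatives were DESeq2 1.42.0, other scaling, other filters, a 1.5-fold rule, fits of 2 groups and leaving out each library.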

Additional observations from a re-analysis of the deposited data

How the results depend on the processing

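Of 123 called differences between groups in single synthetase genes, 0 reversed under any alternative. Between 0 and 18 lost their call, and the cause was not tested; the 1.5-fold rule, stricter by construction, removed 56. DESeq2, DESeq2-type size factors in edgeR and a limit of 1 CPM in 3 libraries kept every count within 1.5 times.

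Counts of called genes moved as follows. For mutation 1 against wild type, 5 higher became 3 with library totals only, 3 with 2 groups in the fit and 0 with the 1.5-fold rule. For mutation 2 against wild type, 16 called (6 higher, 10 lower) became 6 (2 and 4) with the 1.5-fold rule and 5 (2 and 3) with 2 groups, and 6 were lower without a filter. For mutation 3 against wild type, 21 (2 and 19) became 12 (1 and 11) with the 1.5-fold rule. Mutation 1 against mutation 2 gave 24, and 13 with that rule; its 5 higher became 3 (library totals), 0 (1.5-fold) and 8 (2 groups). Mutation 1 against mutation 3 gave 16 (5 and 11), then 8 (1 and 7) with the 1.5-fold rule and 25 (8 and 17) with 2 groups; 3 were higher with library totals and 2 without a filter. Mutation 3 against mutation 2 gave 19 (3 and 16), then 10 (0 and 10) with the 1.5-fold rule, and 6 higher with 2 groups.

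Library totals without composition scaling shifted the median of all genes for mutation 1 against wild type from -0.04 to -0.25, with 3754 higher and 6643 lower genes instead of 4902 and 5510.

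Leaving out each library in turn gave 25 to 29 genes (3 to 7 higher, 22 lower) for mutation 1 against wild type, 10 to 24 (4 to 11, 6 to 13) for mutation 2, 17 to 27 (2 to 7, 15 to 20) for mutation 3, and 29 to 32 among the 4 groups. Between mutants the ranges were 23 to 30 (4 to 8, 19 to 22) for 1 against 2, 11 to 25 (2 to 8, 9 to 17) for 1 against 3 and 17 to 26 (3 to 6, 14 to 20) for 3 against 2. The highest counts came without wild-type replicate 1, when 38 of 81 differences not called gained a call and 0 were lost. For mutation 2 against wild type, the count was 10 without wild-type replicate 3, mutation 2 replicate 2 or mutation 2 replicate 3. Counts split by compartment or list, and values of single list genes, without wild-type replicate 1 were added after seeing the data. No paired analysis was possible because the mutant libraries carry no replicate numbers in the labels.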
